A study of Rattus norvegicus with 10 samples.

Results

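The genes described here carry out or govern the burning of fatty acids in mitochondria and peroxisomes, and many of them are known targets of the nuclear receptor PPAR alpha. They were read in kidneys of rats fed with or without choline and with vegetable or fish oil. The set is 38 genes chosen by symbol for these roles, with no threshold on their values but with earlier results of these data known. Of these, 37 had a probe set of their own on the array, out of 14506 genes with a single symbol, and each is given by the probe set whose mean over the 10 arrays is highest. They divide into 22 mitochondrial genes, 7 peroxisomal genes and 8 regulators and other targets. Acaa1a, a peroxisomal thiolase, has only a probe set that is annotated to Acaa1b as well, and no value is given for it.

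Male weanling Wistar rats were killed after 6 days on 1 of 4 diets. Each diet lacked or contained choline, a nutrient needed to make phosphatidylcholine, and its fat was either vegetable (corn and hydrogenated oils, corn oil in the sample labels) or menhaden oil, a fish oil. Each array held kidney RNA from 1 pool of 3 animals, and each group had 2 arrays, so the small number of arrays limits precision. Kidneys from the choline-deficient vegetable oil diet carry 2 labels, with and without the word necrotic, so there are 5 groups, named here control vegetable oil, deficient vegetable oil, necrotic, control fish oil and deficient fish oil. Control means choline-supplemented, and how animals came to be in a necrotic pool is not stated in the sources used here.

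Values are log2 intensities per probe set. A difference is given with its moderated standard error and comes from 1 limma fit to all arrays (n = 2 per group). Rose, fell and called refer to an adjusted p (Benjamini-Hochberg over all 29214 probe sets) under 0.05. Comparisons that share a group, such as all those that use the control vegetable oil arrays, interactions included, are not independent of each other. The level of 1 gene is not compared with that of another, because probe sets differ in brightness for the same amount of RNA.

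Fatty acids enter mitochondria as carnitine esters and are shortened there in cycles of beta-oxidation, whose electrons reach the respiratory chain through electron transfer flavoprotein. Peroxisomes shorten very long chains with enzymes of their own and form hydrogen peroxide, which catalase removes. PPAR alpha binds fatty acids, pairs with the retinoid X receptor on DNA and raises transcription of genes of both organelles. The proximal tubule relies largely on fatty acid oxidation for its energy, and the long polyunsaturated fatty acids of fish oil are known ligands of PPAR alpha.

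The arrays looked like kidney: Slc34a1, the phosphate cotransporter of the proximal tubule, was at 14.00 and 14.03 on the control vegetable oil arrays. Arrays of 1 group correlated at r = 0.990 to 0.995 over all probe sets, which are not independent of each other. Replicate 2 of the deficient vegetable oil kidneys stood apart from replicate 1, since 32 of the 37 genes were lower on it, against 41.6% of all probe sets. Counts of calls among the 37 genes that rest on this group are given without either of its arrays as well. Counts for markers and other lists of genes are given with both arrays only.

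**Figure D1:**
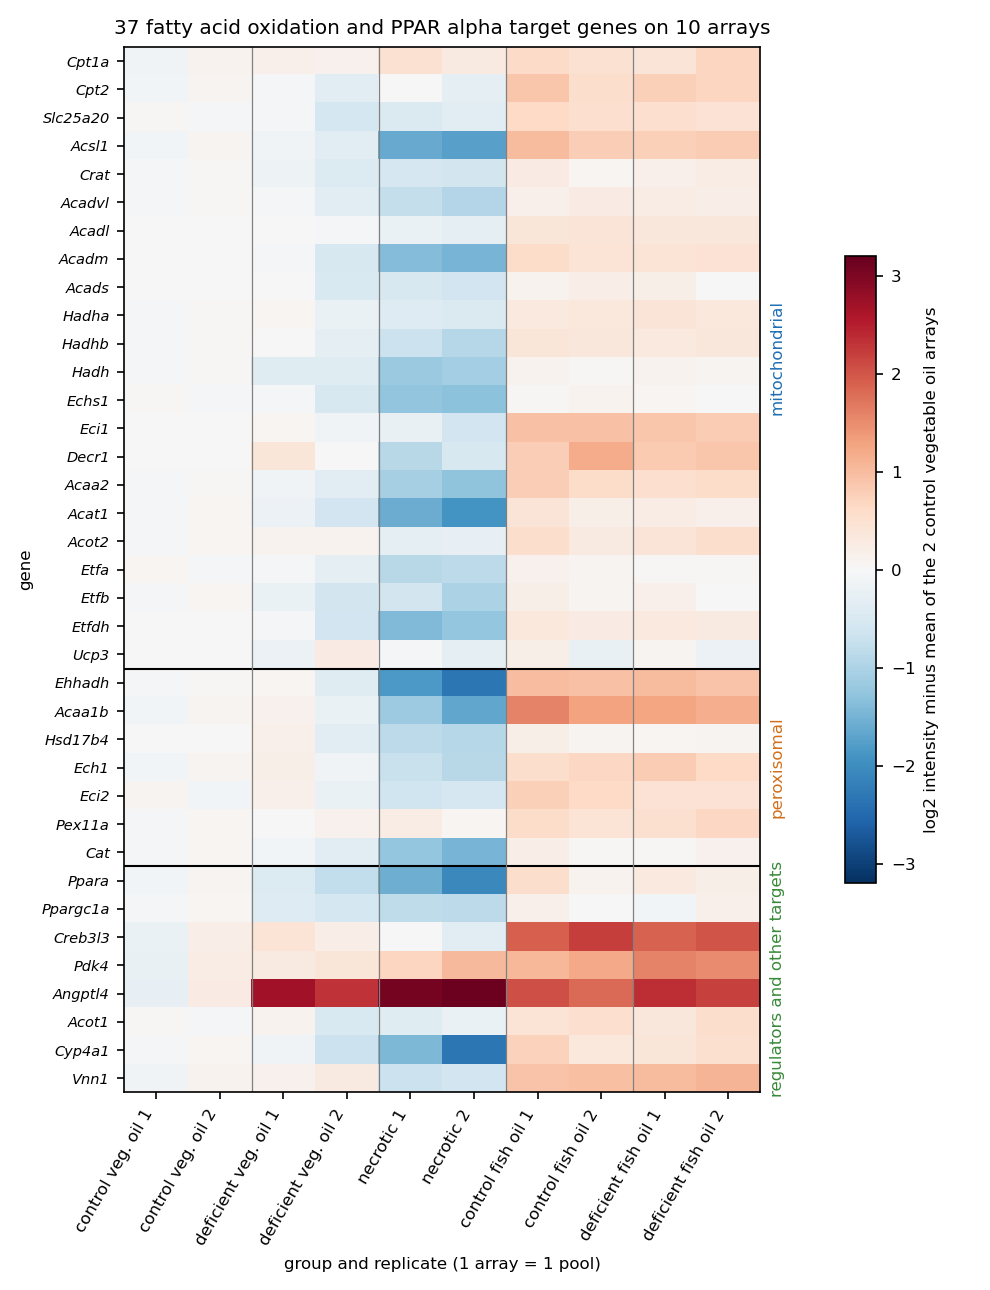
Each row is 1 of the 37 genes, grouped by class, and each column 1 of the 10 arrays, coloured by the log2 intensity minus the mean of the 2 control vegetable oil arrays. On the 2 necrotic arrays 27 of the 37 genes lie below all 8 other arrays (13.3% of all probe sets do), and on the 4 fish oil arrays 27 of the 37 genes lie above all 6 vegetable oil arrays (2.41% of all probe sets do).

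The first comparison is between necrotic kidneys and those of the control vegetable oil group. Most enzymes of fatty acid oxidation were lower in the necrotic kidneys, by up to 4.18-fold for Ehhadh, while Angptl4 was 8.61-fold higher. Of the 37 genes 25 fell and 2 rose, with a median difference of -0.80, against 0.05 over all named genes. The background of this comparison was high: 10.7% of all probe sets fell and 10.2% rose (14.8% and 13.3% of named genes). By class, 15 of the 22 mitochondrial genes fell and none rose (median -0.74), 6 of the 7 peroxisomal genes fell and none rose (median -0.88), and 4 of the 8 regulators and other targets fell while 2 rose (median -0.48). Without 1 of the 4 arrays compared, Crat, Acads, Hadha, Decr1, Etfb, Ech1, Eci2 and Vnn1 lost the call in at least 1 fit. Fewer of all probe sets were called in each of these fits as well.

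The mitochondrial enzymes are described in the order of the pathway. Acsl1, which activates long-chain fatty acids by joining them to coenzyme A, was at 11.07 and 11.25 on the control vegetable oil arrays, 11.05 and 10.79 on the deficient vegetable oil arrays, 9.54 and 9.42 on the necrotic arrays, 12.16 and 11.93 on the control fish oil arrays and 11.93 and 11.97 on the deficient fish oil arrays. It fell by 1.68 ± 0.14 (adjusted p = 0.00014) in the necrotic kidneys, and both necrotic arrays lay below the other 8. The 3 genes of the carnitine shuttle, which carries the activated chain into the mitochondrion, were not called. Cpt1a, the carnitine palmitoyltransferase of the outer membrane and the controlled step of entry, was at 11.56 and 11.79 on the control vegetable oil arrays, 11.83 and 11.82 on the deficient vegetable oil arrays, 12.17 and 11.97 on the necrotic arrays, 12.29 and 12.16 on the control fish oil arrays and 12.10 and 12.35 on the deficient fish oil arrays. Its necrotic arrays lay above both control vegetable oil arrays, with a difference of 0.39 ± 0.14 (adjusted p = 0.0857) that did not pass the threshold. Cpt2, the inner membrane partner, was at 11.25 and 11.40 on the control vegetable oil arrays, 11.28 and 10.96 on the deficient vegetable oil arrays, 11.30 and 11.03 on the necrotic arrays, 12.21 and 11.88 on the control fish oil arrays and 12.08 and 12.02 on the deficient fish oil arrays, so that the necrotic and control vegetable oil ranges overlapped, with a difference of -0.16 ± 0.17 (adjusted p = 0.556). Slc25a20, the carrier that exchanges carnitine for its esters, was at 10.05 and 10.17 on the necrotic and 10.55 and 10.47 on the control vegetable oil arrays. Crat, which makes short carnitine esters inside the mitochondrion, fell by 0.57 ± 0.13 (adjusted p = 0.0152).

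Of the 4 acyl-CoA dehydrogenases that open each cycle, 3 fell. Acadm, which acts on medium chains, was at 11.93 and 11.96 on the control vegetable oil arrays, 11.87 and 11.42 on the deficient vegetable oil arrays, 10.57 and 10.46 on the necrotic arrays, 12.53 and 12.39 on the control fish oil arrays and 12.39 and 12.42 on the deficient fish oil arrays. It fell by 1.43 ± 0.15 (adjusted p = 0.000429). Acadvl, the enzyme of very long chains, fell by 0.85 ± 0.14 (adjusted p = 0.00317), and Acads, the enzyme of short chains, fell by 0.57 ± 0.17 (adjusted p = 0.0398). Acadl, the enzyme of long chains, was at 11.58 and 11.49 on the necrotic and 11.79 and 11.79 on the control vegetable oil arrays and was not called.

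The later steps of the cycle fell as well. Echs1, the short-chain enoyl-CoA hydratase, was at 12.70 and 12.65 on the control vegetable oil arrays, 12.62 and 12.16 on the deficient vegetable oil arrays, 11.41 and 11.36 on the necrotic arrays, 12.70 and 12.80 on the control fish oil arrays and 12.73 and 12.67 on the deficient fish oil arrays, and it fell by 1.29 ± 0.15 (adjusted p = 0.000711). Hadh, the short-chain 3-hydroxyacyl-CoA dehydrogenase, was at 12.97 and 13.03 on the control vegetable oil arrays, 12.62 and 12.61 on the deficient vegetable oil arrays, 11.81 and 11.91 on the necrotic arrays, 13.11 and 13.04 on the control fish oil arrays and 13.11 and 13.10 on the deficient fish oil arrays, and it fell by 1.14 ± 0.10 (adjusted p = 0.000204). Acaa2, a thiolase that cleaves off acetyl-CoA, was at 12.28 and 12.36 on the control vegetable oil arrays, 12.20 and 11.95 on the deficient vegetable oil arrays, 11.26 and 11.03 on the necrotic arrays, 13.10 and 12.90 on the control fish oil arrays and 12.86 and 12.92 on the deficient fish oil arrays, and it fell by 1.18 ± 0.14 (adjusted p = 0.000705). For all 3 enzymes the necrotic arrays lay below every other array. Acat1, the thiolase that handles acetoacetyl-CoA, was at 11.87 and 11.99 on the control vegetable oil arrays, 11.74 and 11.33 on the deficient vegetable oil arrays, 10.34 and 10.03 on the necrotic arrays, 12.35 and 12.12 on the control fish oil arrays and 12.16 and 12.10 on the deficient fish oil arrays, and it fell by 1.75 ± 0.17 (adjusted p = 0.000286), or 3.36-fold.

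The trifunctional protein of long chains, made of Hadha and Hadhb, showed smaller falls: Hadhb fell by 0.80 ± 0.13 (adjusted p = 0.00362) and Hadha fell by 0.44 ± 0.12 (adjusted p = 0.0341). A second probe set of Hadha was at 8.51 and 8.39 on the necrotic and 8.50 and 8.74 on the control vegetable oil arrays and was not called (-0.17 ± 0.16, adjusted p = 0.499), so the 2 probe sets of this gene differ in the call. Hadha was the single gene of the set with more than 1 probe set.

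Among the carriers of electrons, Etfdh, which passes them to ubiquinone, was at 10.79 and 10.80 on the control vegetable oil arrays, 10.73 and 10.19 on the deficient vegetable oil arrays, 9.37 and 9.55 on the necrotic arrays, 11.14 and 11.06 on the control fish oil arrays and 11.11 and 11.09 on the deficient fish oil arrays. It fell by 1.33 ± 0.17 (adjusted p = 0.000999), while the flavoprotein subunits Etfa and Etfb fell by 0.86 ± 0.12 (adjusted p = 0.0014) and 0.80 ± 0.18 (adjusted p = 0.0132). Of the auxiliary enzymes of unsaturated chains, Decr1, the dienoyl-CoA reductase, fell by 0.69 ± 0.19 (adjusted p = 0.0348), while Eci1, an enoyl-CoA isomerase, was not called, with a difference of -0.43 ± 0.14 (adjusted p = 0.0621). Acot2, a mitochondrial thioesterase, was not called. Ucp3, an uncoupling protein known from muscle, was at 6.83 and 6.86 on the control vegetable oil arrays, 6.66 and 7.10 on the deficient vegetable oil arrays, 6.82 and 6.56 on the necrotic arrays, 7.04 and 6.61 on the control fish oil arrays and 6.94 and 6.65 on the deficient fish oil arrays, and it was called in no comparison.

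In the peroxisome, Ehhadh, the bifunctional enzyme of the peroxisomal cycle and a classical target of PPAR alpha, was at 12.44 and 12.51 on the control vegetable oil arrays, 12.54 and 12.08 on the deficient vegetable oil arrays, 10.65 and 10.17 on the necrotic arrays, 13.45 and 13.42 on the control fish oil arrays and 13.49 and 13.38 on the deficient fish oil arrays. It fell by 2.06 ± 0.19 (adjusted p = 0.000215), and its lowest value in any other group was more than 1 log2 unit above both necrotic arrays. Acaa1b, a peroxisomal thiolase, was at 10.83 and 11.01 on the control vegetable oil arrays, 11.06 and 10.72 on the deficient vegetable oil arrays, 9.75 and 9.25 on the necrotic arrays, 12.50 and 12.20 on the control fish oil arrays and 12.19 and 12.08 on the deficient fish oil arrays, and it fell by 1.42 ± 0.20 (adjusted p = 0.00146). Cat, catalase, was at 13.76 and 13.86 on the control vegetable oil arrays, 13.73 and 13.45 on the deficient vegetable oil arrays, 12.58 and 12.32 on the necrotic arrays, 14.03 and 13.86 on the control fish oil arrays and 13.85 and 13.94 on the deficient fish oil arrays, and it fell by 1.36 ± 0.14 (adjusted p = 0.000408). Hsd17b4, the second bifunctional enzyme, fell by 0.88 ± 0.16 (adjusted p = 0.00575), Ech1, a dienoyl-CoA isomerase, fell by 0.81 ± 0.14 (adjusted p = 0.00503), and Eci2, an enoyl-CoA isomerase, fell by 0.58 ± 0.15 (adjusted p = 0.0228). Pex11a, which drives the division of peroxisomes, was the single peroxisomal gene not called, at 10.23 and 10.05 on the necrotic and 9.93 and 10.05 on the control vegetable oil arrays.

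The regulators divided. Ppara, which encodes the receptor itself, was at 9.81 and 9.997 on the control vegetable oil arrays, 9.47 and 9.10 on the deficient vegetable oil arrays, 8.35 and 7.83 on the necrotic arrays, 10.46 and 10.02 on the control fish oil arrays and 10.23 and 10.10 on the deficient fish oil arrays. It fell by 1.81 ± 0.22 (adjusted p = 0.000757), or 3.52-fold, and every necrotic array lay below every other array. Ppargc1a, a coactivator of PPAR alpha and of mitochondrial genes, was at 11.62 and 11.72 on the control vegetable oil arrays, 11.26 and 11.09 on the deficient vegetable oil arrays, 10.84 and 10.83 on the necrotic arrays, 11.82 and 11.67 on the control fish oil arrays and 11.57 and 11.83 on the deficient fish oil arrays, and it fell by 0.83 ± 0.13 (adjusted p = 0.00267). Cyp4a1, an omega-hydroxylase of fatty acids induced through PPAR alpha, was at 11.98 and 12.12 on the control vegetable oil arrays, 11.93 and 11.35 on the deficient vegetable oil arrays, 10.60 and 9.75 on the necrotic arrays, 12.79 and 12.40 on the control fish oil arrays and 12.43 and 12.56 on the deficient fish oil arrays, and it fell by 1.88 ± 0.29 (adjusted p = 0.00243). Vnn1, a pantetheinase, fell by 0.66 ± 0.12 (adjusted p = 0.00615). Creb3l3, a transcription factor of lipid metabolism, and Acot1, a cytosolic thioesterase, were not called, with differences of -0.19 ± 0.19 (adjusted p = 0.535) and -0.30 ± 0.18 (adjusted p = 0.299). Acot1 was at 9.67 and 9.57 on the control vegetable oil arrays, 9.72 and 9.14 on the deficient vegetable oil arrays, 9.24 and 9.40 on the necrotic arrays, 10.06 and 10.15 on the control fish oil arrays and 9.99 and 10.17 on the deficient fish oil arrays.

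The 2 genes that rose act outside the oxidation cycle. Angptl4, a secreted inhibitor of lipoprotein lipase and a target of more than 1 PPAR, was at 7.79 and 8.31 on the control vegetable oil arrays, 10.74 and 10.35 on the deficient vegetable oil arrays, 11.11 and 11.19 on the necrotic arrays, 10.11 and 9.87 on the control fish oil arrays and 10.40 and 10.22 on the deficient fish oil arrays. The control vegetable oil arrays were the lowest by a wide margin, and in the necrotic kidneys the gene rose by 3.11 ± 0.20 (adjusted p = 5.17e-05). Pdk4, a kinase that shuts off pyruvate dehydrogenase and so spares glucose, was at 9.89 and 10.35 on the control vegetable oil arrays, 10.40 and 10.50 on the deficient vegetable oil arrays, 10.81 and 11.17 on the necrotic arrays, 11.18 and 11.33 on the control fish oil arrays and 11.72 and 11.64 on the deficient fish oil arrays. It rose by 0.87 ± 0.18 (adjusted p = 0.00932), but the call was lost without necrotic replicate 2 (difference 0.69) and without control vegetable oil replicate 1 (difference 0.64).

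**Figure D2:**
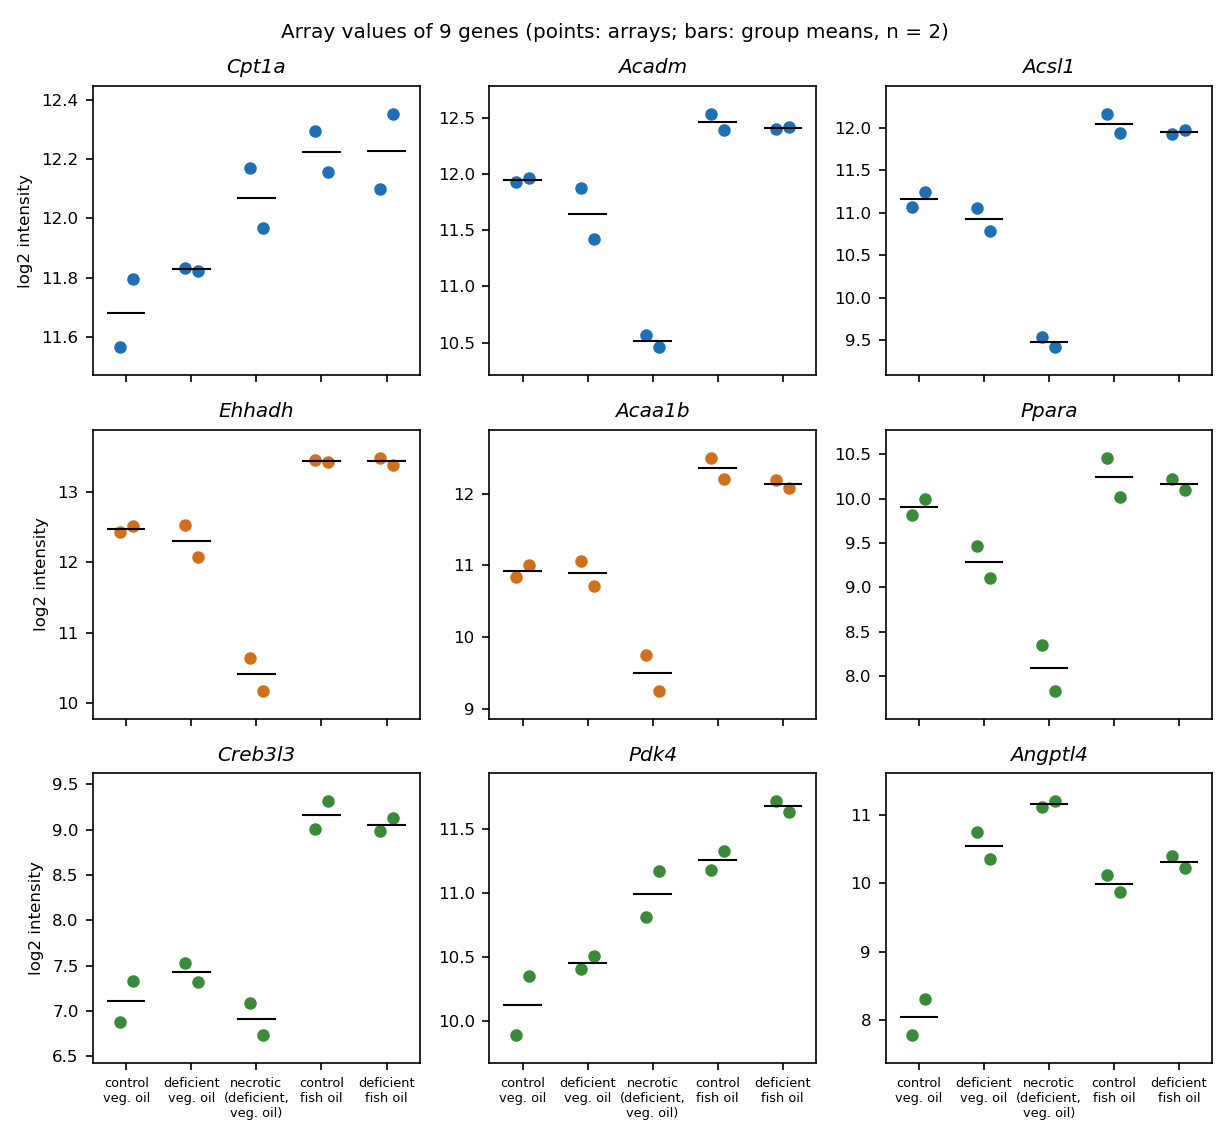
Log2 intensity of 9 genes by group, with 1 point per array and a bar at the group mean (n = 2); the vertical axis differs between panels and does not start at 0. Acadm, Acsl1, Ehhadh, Acaa1b and Ppara are lowest in the necrotic group, while Angptl4 is lowest in the control vegetable oil group and Creb3l3 is high on the 4 fish oil arrays.

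Marker genes of cell types moved with these falls. In the same comparison 25 of 30 proximal tubule markers fell (median -1.45), and the mean log2 level of that list was 11.15 to 11.29 on the necrotic arrays, 12.33 to 12.57 on the deficient vegetable oil arrays and 12.70 to 12.73 on the control vegetable oil arrays. Of 16 markers of the distal nephron 12 fell (median -1.20). Of 15 macrophage markers 11 rose (median 1.87), with a mean log2 level of 9.50 to 9.51 on the necrotic against 7.77 to 7.83 on the control vegetable oil arrays, and 10 of 12 tubular injury markers rose. Of 5 podocyte markers 2 fell, and none of 9 skeletal muscle markers was called. Of 10 fat markers none rose and 2 fell, Pnpla3 and Ucp1, the uncoupling protein of brown fat. Ucp1 was at 7.35 and 5.89 on the necrotic, 10.36 and 10.99 on the control vegetable oil, 10.79 and 10.29 on the deficient vegetable oil, 11.13 and 9.69 on the control fish oil and 10.73 and 8.55 on the deficient fish oil arrays, and it fell by 4.05 ± 0.75 (adjusted p = 0.00602). Tissue outside the kidney in the pools was not tested as a part of the falls. Log2 intensities have no true zero, so no marker can be called absent. The part of these shifts in the falls of the oxidation genes was not tested, and in whole kidney RNA fewer cells of a type and less RNA per cell cannot be told apart. The respiratory chain and citrate cycle fell too, with 39 of 47 genes called (median -0.68).

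Without the necrotic pools, choline deficiency on vegetable oil changed 1 gene of the 37 at the threshold. Angptl4 rose by 2.50 ± 0.20 (adjusted p = 0.00152), or 5.65-fold, and was called in each fit that left out 1 array. The background was 0.893% of probe sets called higher and 0.236% lower (1.45% and 0.303% of named genes). No gene of the set fell by limma, and 7 of the 37 (18.9%) had an unadjusted p under 0.05, near the 15.2% of all probe sets. In this comparison 6 of 12 tubular injury and 3 of 15 macrophage markers rose and 1 of 30 proximal tubule and 1 of 16 distal nephron markers fell. The median difference was -0.19, but it was -0.36 without replicate 1 of the deficient vegetable oil kidneys and -0.00 without replicate 2. Ppara had lower values on both deficient than on both control arrays, with a difference of -0.62 ± 0.22 (adjusted p = 0.242), and so had Ppargc1a, with -0.49 ± 0.13 (adjusted p = 0.139). Pdk4 differed by 0.33 ± 0.18 (adjusted p = 0.412).

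Within the deficient vegetable oil diet, necrotic kidneys again had lower oxidation genes than kidneys without that label. Of the 37 genes 20 fell and none rose, with a median of -0.65, where 5.08% of probe sets were called lower and 4.71% higher (7.8% and 6.41% of named genes). These were 11 mitochondrial genes, 6 peroxisomal genes and 3 of the regulators and other targets. The largest falls were in Ehhadh, which fell by 1.90 ± 0.19 (adjusted p = 0.000837), Cyp4a1, which fell by 1.47 ± 0.29 (adjusted p = 0.016), and Acsl1, which fell by 1.45 ± 0.14 (adjusted p = 0.000726). Ppara fell by 1.20 ± 0.22 (adjusted p = 0.0116), while Ppargc1a was not called, with -0.34 ± 0.13 (adjusted p = 0.153). Vnn1, whose deficient vegetable oil arrays both lay above the control ones, fell by 0.88 ± 0.12 (adjusted p = 0.0038). Angptl4, already high without necrosis, differed by 0.61 ± 0.20 (adjusted p = 0.0985) and was not called. Markers moved with these falls too: 26 of 30 proximal tubule and 11 of 16 distal nephron markers fell, 1 distal nephron marker rose, 7 of 15 macrophage markers rose and 1 fell, 5 of 12 injury markers rose, 2 of 10 fat markers fell, and 26 of 47 respiratory chain and citrate cycle genes fell. Their part in the result was not tested. The count of falls was 11 without deficient vegetable oil replicate 1, 22 without its replicate 2, 13 without necrotic replicate 2, and 5 when the 4 arrays were fitted alone. Over all probe sets the calls in either direction moved alike, from 2860 to 1040, 3125 and 1312 in the 3 fits without an array. Of the 20, 11 were called in every fit that left out 1 array, among them Acsl1, Acadm, Ehhadh, Cat and Vnn1, while Ppara and Cyp4a1 lost the call in at least 1.

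In kidneys of rats given fish oil, choline deficiency gave no call in the set. By limma 0 of the 37 genes were called and 1 had an unadjusted p under 0.05, with differences from -0.24 to 0.42 and a median of -0.05. Over all probe sets 0% were called, with 1036 at an unadjusted p under 0.05. The 2 largest differences were those of Pdk4, with 0.42 ± 0.18, and Angptl4, with 0.32 ± 0.20. The ranges of the 2 fish oil groups overlapped for 26 of the 37 genes (70.3%), near the 68.3% of all probe sets.

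Between the oils, most differences of the set ran in the other direction, higher with fish oil. With choline, kidneys of rats given fish oil had 4 genes called higher and none lower than kidneys given vegetable oil, where 0.0856% of probe sets were called higher and 0.0993% lower (0.124% and 0.131% of named genes). By value 36 of the 37 differences were above 0, with a median of 0.49, against -0.01 over all named genes, and both fish oil arrays lay above both vegetable oil arrays for 33 of the 37 genes, against 28.7% of all probe sets. The median difference was 0.35 for the mitochondrial, 0.61 for the peroxisomal and 0.74 for the regulatory and other target genes. Respiratory chain and citrate cycle genes did not move with them in this comparison: 0 of 47 were called by limma, 0 had an unadjusted p under 0.05, and 23 differences were above and 24 below 0.

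Creb3l3 showed the largest oil difference. It was at 6.88 and 7.33 on the control vegetable oil arrays, 7.53 and 7.32 on the deficient vegetable oil arrays, 7.09 and 6.74 on the necrotic arrays, 9.01 and 9.31 on the control fish oil arrays and 8.99 and 9.13 on the deficient fish oil arrays, so that the 4 fish oil arrays stood apart from the 6 vegetable oil arrays, and it rose by 2.05 ± 0.19 (adjusted p = 0.00955), or 4.16-fold. Angptl4 rose by 1.95 ± 0.20 (adjusted p = 0.012), Acaa1b rose by 1.43 ± 0.20 (adjusted p = 0.0383) and Vnn1 rose by 0.94 ± 0.12 (adjusted p = 0.0328). Vnn1 was at 12.22 and 12.46 on the control vegetable oil arrays, 12.49 and 12.63 on the deficient vegetable oil arrays, 11.64 and 11.73 on the necrotic arrays, 13.25 and 13.31 on the control fish oil arrays and 13.35 and 13.43 on the deficient fish oil arrays. These 4 calls are close to the threshold: leaving out 1 of the 4 arrays left 2 calls without control vegetable oil replicate 2 and 0 without any of the others, and a fit of these 4 arrays alone called 0. Over all probe sets 54 were called, and 3 to 6 in the fits without 1 array. Several genes with differences near 1 missed the threshold, among them Pdk4 with 1.13 ± 0.18 (adjusted p = 0.0566), Ehhadh with 0.96 ± 0.19 (adjusted p = 0.115), Eci1 with 0.94 ± 0.14 (adjusted p = 0.0545) and Acsl1 with 0.89 ± 0.14 (adjusted p = 0.0562). Ppara and Ppargc1a themselves were not called, at 0.34 ± 0.22 (adjusted p = 0.54) and 0.08 ± 0.13 (adjusted p = 0.831).

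Among choline-deficient kidneys without the necrotic label the oil comparison uses 4 other arrays. Here 9 of the 37 genes were called higher with fish oil and none lower, where 0.346% of probe sets were called higher and 1.39% lower (0.517% and 2.27% of named genes). The median difference was 0.52, and 35 of the 37 differences were above 0. Creb3l3 rose by 1.63 ± 0.19 (adjusted p = 0.00626), Acaa1b rose by 1.25 ± 0.20 (adjusted p = 0.0193) and Pdk4 rose by 1.22 ± 0.18 (adjusted p = 0.0141). Ehhadh rose by 1.13 ± 0.19 (adjusted p = 0.0257), Acsl1 rose by 1.03 ± 0.14 (adjusted p = 0.0115) and Cpt2 rose by 0.92 ± 0.17 (adjusted p = 0.0337). Eci1 rose by 0.88 ± 0.14, Vnn1 rose by 0.83 ± 0.12 and Acaa2 rose by 0.82 ± 0.14. Eci1 was at 12.44 and 12.45 on the control vegetable oil arrays, 12.51 and 12.33 on the deficient vegetable oil arrays, 12.20 and 11.83 on the necrotic arrays, 13.37 and 13.39 on the control fish oil arrays and 13.34 and 13.27 on the deficient fish oil arrays, and all 4 fish oil arrays lay above all 6 vegetable oil arrays. Cpt2 and Eci1 were thus called with fish oil, though not in the necrotic comparison. Angptl4 differed by -0.23 ± 0.20 (adjusted p = 0.752), in place of the rise it showed with choline. The count was 14 without deficient vegetable oil replicate 1, 2 without its replicate 2, 1 without deficient fish oil replicate 1, 0 without its replicate 2, and 0 when the 4 arrays were fitted alone. Over all probe sets 507 were called in either direction, and 691, 239, 137 and 87 in these 4 fits without an array. In the same comparison 9 of 15 macrophage markers (median -1.07) and 6 of 12 tubular injury markers (median -1.09) were lower, 3 of 16 distal nephron markers were higher, and 1 of 30 proximal tubule markers was higher and 2 lower. Of the 47 respiratory chain and citrate cycle genes 0 were called by limma, but 45 differences were above 0 (median 0.14) and 8 had an unadjusted p under 0.05. The part of these shifts in the 9 calls was not tested.

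**Figure D3:**
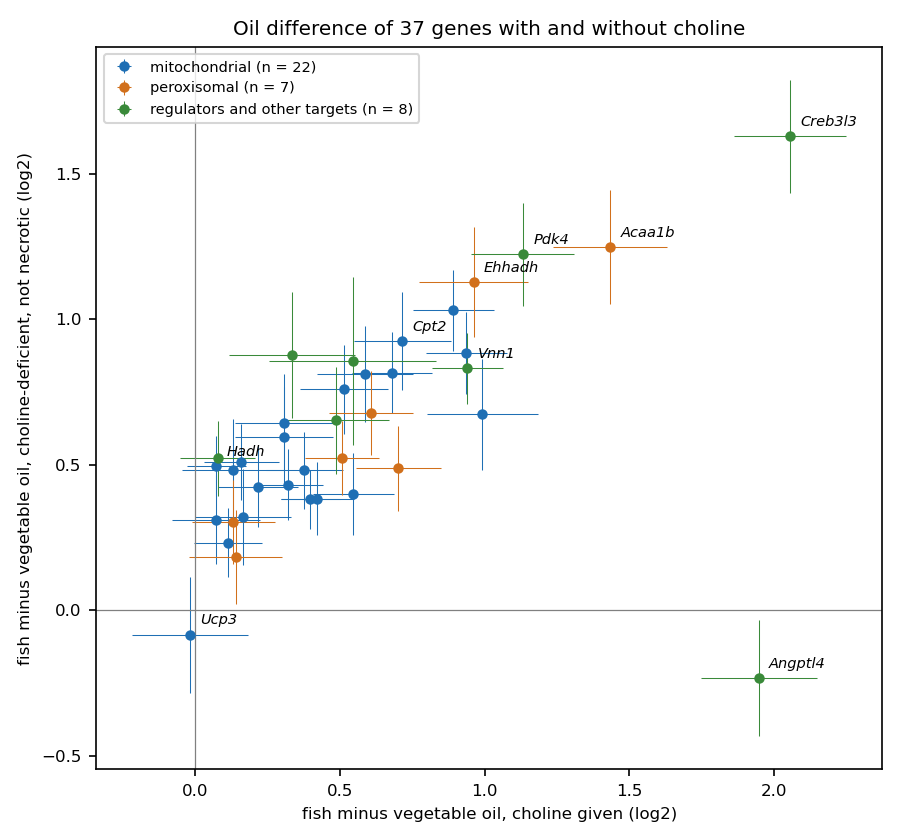
Fish oil minus vegetable oil difference (log2) of the 37 genes with choline (horizontal axis) and without choline in kidneys not labelled necrotic (vertical axis), which share no arrays; bars are moderated standard errors. All genes but Ucp3 and Angptl4 lie above 0 on both axes, with Creb3l3 farthest out at 2.05 and 1.63.

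Averaged over both choline levels, an alternative chosen after seeing the data, the oil difference rests on 4 fish oil and 4 vegetable oil arrays without the necrotic pools. It called 17 of the 37 genes higher and none lower, with 0.555% of probe sets called higher and 1.69% lower (0.786% and 2.59% of named genes). The 17 were 8 of 22 mitochondrial, 5 of 7 peroxisomal and 4 of 8 regulatory and other target genes. Beside Creb3l3 at 1.84 ± 0.14 (adjusted p = 0.00112) they included Acaa1b at 1.34 ± 0.14 (adjusted p = 0.00329), Pdk4 at 1.18 ± 0.13 (adjusted p = 0.00371) and Ehhadh at 1.04 ± 0.13 (adjusted p = 0.00865). Angptl4, at 0.86 ± 0.14 (adjusted p = 0.0205), was also among the 17. Its oil difference was 1.95 with choline and -0.23 without, so its average joins unlike values. Of the shuttle, Cpt2 at 0.82 ± 0.12 (adjusted p = 0.0127) and Slc25a20 at 0.70 ± 0.12 (adjusted p = 0.0216) were called, and Cpt1a at 0.47 ± 0.10 (adjusted p = 0.0511) just missed the threshold. The isomerases and the reductase that handle double bonds were called together: Eci1 at 0.91 ± 0.10, Decr1 at 0.83 ± 0.14, Ech1 at 0.64 ± 0.10 and Eci2 at 0.60 ± 0.10. Decr1 was at 10.35 and 10.36 on the control vegetable oil arrays, 10.74 and 10.34 on the deficient vegetable oil arrays, 9.48 and 9.86 on the necrotic arrays, 11.15 and 11.55 on the control fish oil arrays and 11.19 and 11.23 on the deficient fish oil arrays. Ech1 was at 11.53 and 11.72 on the control vegetable oil arrays, 11.81 and 11.51 on the deficient vegetable oil arrays, 10.90 and 10.72 on the necrotic arrays, 12.18 and 12.28 on the control fish oil arrays and 12.42 and 12.26 on the deficient fish oil arrays. For both genes the vegetable oil arrays without necrosis lay between the necrotic and the fish oil arrays. Pex11a at 0.52 ± 0.09 (adjusted p = 0.0263), Acadm at 0.64 ± 0.11 (adjusted p = 0.0226) and Acadl at 0.39 ± 0.07 (adjusted p = 0.0309) were called too.

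Other genes of the set differed little between the oils in this average. Echs1 was at 0.19 ± 0.11, Etfa at 0.17 ± 0.08, Hsd17b4 at 0.16 ± 0.11 and Cat at 0.22 ± 0.10, and none of these was called, although each fell in the necrotic kidneys. The count of calls was 6 without control vegetable oil replicate 1, 20 without deficient vegetable oil replicate 1, 14 without deficient vegetable oil replicate 2, and 8 to 10 without each of the other 5 arrays. Over all probe sets 656 were called, and 130, 798 and 494 in the 3 fits named. All 4 fish oil arrays lay above the 4 vegetable oil arrays without necrosis for 28 of the 37 genes, against 3.6% of all probe sets. Of 30 proximal tubule markers 1 was higher and 2 lower in this average (median -0.02), of 15 macrophage markers 0 were higher and 9 lower (median -0.71), and of 12 tubular injury markers 0 were higher and 5 lower. With choline alone 0 markers of these 3 lists were called by limma, with 8, 4 and 3 of them at an unadjusted p under 0.05. The median differences of these 3 lists with choline alone were -0.16, -0.25 and -0.21. The part of the macrophage and injury markers in the average, where the median of the 37 genes was 0.52, was not tested.

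**Figure D4:**
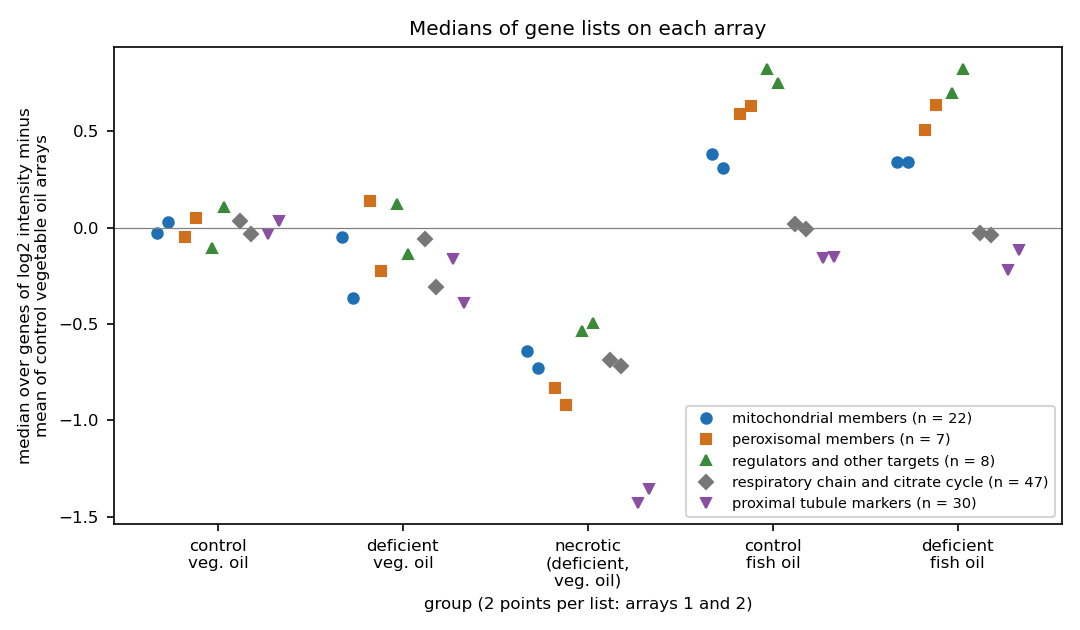
Median over the genes of 5 lists of the log2 intensity minus the mean of the control vegetable oil arrays, with 1 point per array and list. In necrotic kidneys all 5 lists lie below 0, and on the fish oil arrays the 3 lists of oxidation and target genes lie between 0.31 and 0.82 while respiratory chain genes lie between -0.04 and 0.02.

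Promoter sequence is shown because many, though not all, of these genes are known targets of PPAR alpha. PPAR alpha with its partner binds a direct repeat known as DR1, which is 2 copies of AGGTCA in 1 direction with any 1 base in between. The 250 bases before the annotated start were read from RefSeq (GRCr8) for 31 of the 37 genes, on both strands, with up to 2 mismatches over the 12 fixed letters. A match was found in 7 of the 31 promoters (22.6%) and in 853 of all 27457 promoters (3.11%). No promoter of the set held the exact repeat, and 15 of all promoters did (0.0546%). A single copy of AGGTCA, part of the longer motif, was in 7 of the 31 (22.6%) and in 13.7% of all promoters. A match describes letters in the window and is not a measured site, and the known sites of some of these genes lie outside such windows.

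The promoter of Creb3l3, the gene with the largest oil difference, spans chr7:9273070-9273319 (plus strand), and its match, with 2 mismatches, begins 194 bases before the start. The promoter of Acadvl spans chr10:55236706-55236955 (minus strand) and holds the closest match of the set, with 1 mismatch, beginning 17 bases before the start. Capitals mark the match.
Creb3l3: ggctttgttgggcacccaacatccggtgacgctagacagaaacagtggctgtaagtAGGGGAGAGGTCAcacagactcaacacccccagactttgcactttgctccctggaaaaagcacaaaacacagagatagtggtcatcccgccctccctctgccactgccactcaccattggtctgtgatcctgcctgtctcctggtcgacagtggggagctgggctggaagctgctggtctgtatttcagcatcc
Acadvl: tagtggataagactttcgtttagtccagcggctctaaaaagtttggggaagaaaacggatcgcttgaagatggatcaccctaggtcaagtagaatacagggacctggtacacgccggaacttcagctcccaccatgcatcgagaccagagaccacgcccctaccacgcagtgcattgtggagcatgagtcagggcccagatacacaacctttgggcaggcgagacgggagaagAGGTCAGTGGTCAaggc

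The promoters of Acaa1b and Angptl4, both called higher with fish oil where choline was given, held no match in this window and are shown for contrast, in lower case throughout. Acaa1b spans chr8:127759570-127759819 (minus strand) and Angptl4 spans chr7:15258682-15258931 (minus strand).
Acaa1b: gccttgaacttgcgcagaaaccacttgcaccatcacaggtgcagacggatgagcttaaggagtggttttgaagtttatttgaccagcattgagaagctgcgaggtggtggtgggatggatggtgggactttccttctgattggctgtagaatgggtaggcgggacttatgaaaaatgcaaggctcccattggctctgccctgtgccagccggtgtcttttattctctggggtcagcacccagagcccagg
Angptl4: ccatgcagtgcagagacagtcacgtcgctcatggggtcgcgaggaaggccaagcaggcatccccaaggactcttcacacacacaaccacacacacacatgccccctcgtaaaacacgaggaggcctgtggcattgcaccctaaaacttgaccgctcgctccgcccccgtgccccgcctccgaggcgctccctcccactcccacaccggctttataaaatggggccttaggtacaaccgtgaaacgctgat

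The other 5 matches, each with 2 mismatches, are given with their flanks and capitals over the match. They lie in the windows of Crat at chr3:34087100-34087349, Echs1 at chr1:204333507-204333756, Etfa at chr8:64787966-64788215 and Cat at chr3:110329527-110329776, all on the minus strand, and of Ucp3 at chr1:164227660-164227909 on the plus strand. The motif itself runs on the opposite strand in Echs1 and Etfa.
Crat: gacgttcaAGGACACCGGTCAgacttgga
Echs1: ccgctaaaAGACCTCTGATCTgatcttcc
Etfa: gcacacccTTACCTTTGCCCTactcccaa
Cat: actctcagAGGTCAGAGAGCAccgccttt
Ucp3: tcagaattAGGTTTCAGGTCAgctggtgc
Of the 7 genes with a match, Creb3l3 was called higher with fish oil in the average of both choline levels. Crat, Acadvl, Echs1, Etfa and Cat fell in necrotic against control vegetable oil kidneys, while Ucp3 was called in neither. Over the whole set 17 of the 37 genes were called higher in that average (0.555% of all probe sets). In necrotic kidneys 25 of the 37 fell (10.7% of all probe sets). A link between a match and a call was not tested. Hadha and Hadhb are transcribed away from each other, and their promoter windows overlap by 200 bases.

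Deficient kidneys of both oils were then set against each other with the necrotic pools in place of the others. Fish oil kidneys had 34 of the 37 genes called higher and 1 lower than necrotic kidneys, with a median of 1.08, where 9.25% of probe sets were called higher and 10.5% lower (13.1% and 14.2% of named genes). Ehhadh was higher by 3.02 ± 0.19 (adjusted p = 4.78e-05), or 8.13-fold, Acaa1b by 2.64 ± 0.20 (adjusted p = 8.49e-05) and Acsl1 by 2.48 ± 0.14 (adjusted p = 3e-05). Creb3l3 was higher by 2.14 ± 0.19 (adjusted p = 0.000182) and Ppara by 2.07 ± 0.22 (adjusted p = 0.000362). Cpt1a, with 0.16 ± 0.14 (adjusted p = 0.526), and Ucp3 were not called. Acads, Etfb, Pex11a, Pdk4 and Acot1 lost the call in at least 1 fit that left out 1 array. Fewer of all probe sets were called in each of those fits too. Angptl4 was lower, with -0.84 ± 0.20 (adjusted p = 0.0184), a call that was lost in each fit that left out 1 of the 4 arrays. In the same comparison 24 of 30 proximal tubule markers were higher and 1 lower, 12 of 16 distal nephron markers and 3 of 10 fat markers were higher, 12 of 15 macrophage and 11 of 12 injury markers were lower, and 37 of 47 respiratory chain and citrate cycle genes were higher. Their part in the result was not tested. The comparison contains both the oil difference seen without necrosis and the difference between necrotic and other kidneys.

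**Figure D5:**
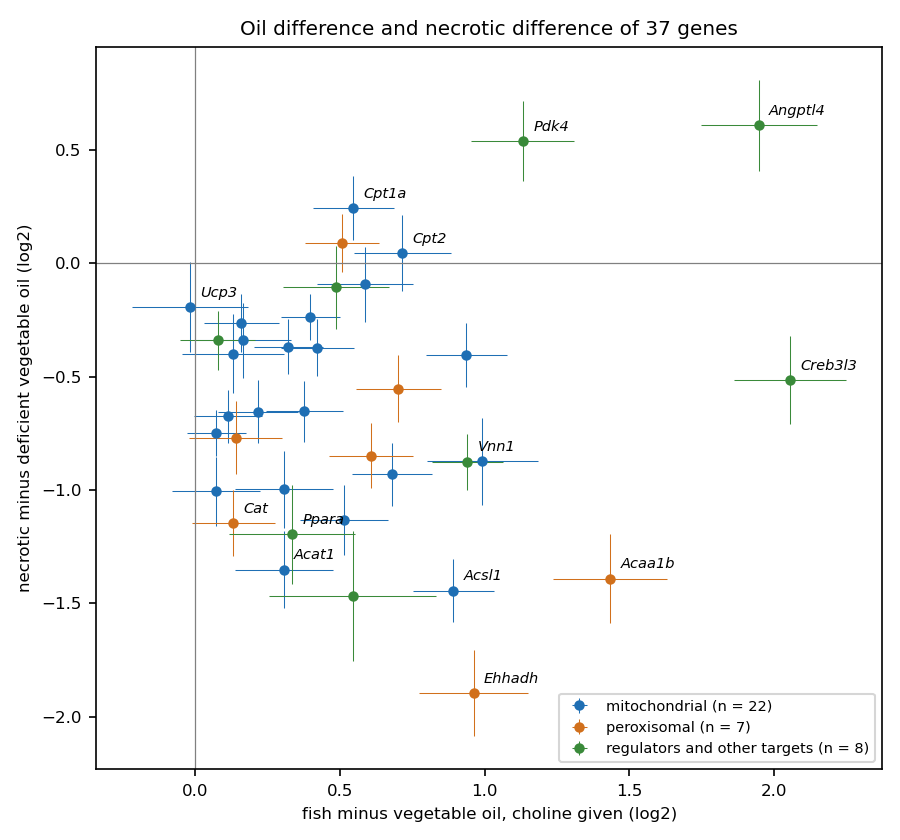
Fish oil minus vegetable oil difference with choline (horizontal axis, log2) against the necrotic minus deficient vegetable oil difference (vertical axis, log2) of the 37 genes; the axes share no arrays and bars are moderated standard errors. Ehhadh, Acsl1 and Acaa1b lie low and to the right, and Acat1 and Cat lie low and farther left. The 5 genes Cpt1a, Cpt2, Pex11a, Pdk4 and Angptl4 lie above 0 on both axes.

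The effect of choline deficiency was compared between oils by the interaction term. With the necrotic pools as the deficient vegetable oil group, 18 of the 37 genes had a higher and 1 a lower effect of deficiency under fish oil, where 4.9% of probe sets were called higher and 3.82% lower (7.59% and 5.32% of named genes). The largest were Ehhadh at 2.06 ± 0.27 (adjusted p = 0.0032), Cyp4a1 at 1.78 ± 0.41 (adjusted p = 0.0312), Ppara at 1.74 ± 0.31 (adjusted p = 0.0119) and Acat1 at 1.64 ± 0.24 (adjusted p = 0.00542), and Angptl4 was the lower one at -2.79 ± 0.28 (adjusted p = 0.00124). Markers were called with them: 23 of 30 proximal tubule and 11 of 16 distal nephron markers and 22 of 47 respiratory chain and citrate cycle genes were higher, and 10 of 15 macrophage and 10 of 12 injury markers lower, and their part was not tested. The count of 18 was 7 without either control vegetable oil array and at most 14 without any other array, while all calls went from 2548 to 1022 and 955 without those 2 arrays. Acsl1, Acadm, Hadh, Acat1, Ehhadh, Cat and Angptl4 were called in each of these fits. With the pools not labelled necrotic, Angptl4 alone was called, at -2.18 ± 0.28 (adjusted p = 0.045), where 0.00685% of probe sets were called higher and 0.0958% lower (0.0138% and 0.159% of named genes), and 3 of the 37 had an unadjusted p under 0.05. That call was lost without any 1 of the 8 arrays and when those 8 arrays were fitted alone.

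Other genes of the pathway are given from a list of 100, of which 87 were analysed here. In necrotic against control vegetable oil kidneys 47 fell and 6 rose, with a median of -0.59. The largest falls were in Acsm3, a medium-chain acyl-CoA synthetase, which fell by 4.65 ± 0.14 (adjusted p = 3.04e-06), Acot12, an acetyl-CoA thioesterase, which fell by 2.77 ± 0.40 (adjusted p = 0.00181), Amacr, the racemase of branched chains, which fell by 2.63 ± 0.16 (adjusted p = 4.56e-05), and Acox2, the branched-chain acyl-CoA oxidase, which fell by 2.55 ± 0.23 (adjusted p = 0.000184). Those that rose included Plin2, a coat protein of lipid droplets, which rose by 1.64 ± 0.28 (adjusted p = 0.00413), and Acsl4, which favours arachidonate, which rose by 1.20 ± 0.12 (adjusted p = 0.000342). Ucp2, an uncoupling protein, rose by 1.07 ± 0.21 (adjusted p = 0.0082), and Pdk1, a kinase of pyruvate dehydrogenase, rose by 0.88 ± 0.11 (adjusted p = 0.000823).

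The other receptors named here all had differences below 0 in necrotic against control vegetable oil kidneys, but not all were called. Ppard, the delta receptor, fell by 1.15 ± 0.19 (adjusted p = 0.00343), and Rxra, the retinoid X receptor alpha, fell by 0.53 ± 0.13 (adjusted p = 0.0193). Pparg, the gamma receptor, was not called, at -0.50 ± 0.24 (adjusted p = 0.191), nor were the fatty acid transporter Cd36 and the binding protein Fabp1, at 0.17 ± 0.17 (adjusted p = 0.551) and -0.64 ± 0.28 (adjusted p = 0.155).

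With necrotic kidneys set against deficient vegetable oil kidneys, 28 of the 87 fell and 3 rose. Acsm3 fell by 3.81 ± 0.14 (adjusted p = 7.44e-06), Acot12 fell by 2.13 ± 0.40 (adjusted p = 0.0133), Acsm5, another medium-chain synthetase, fell by 2.05 ± 0.13 (adjusted p = 0.00016) and Acox2 fell by 1.89 ± 0.23 (adjusted p = 0.00179). Ucp2 rose by 1.09 ± 0.21 (adjusted p = 0.0155), Pdk1 rose by 0.99 ± 0.11 (adjusted p = 0.0012) and Acsl4 rose by 0.61 ± 0.12 (adjusted p = 0.0168). In deficient against control vegetable oil kidneys Acsm3 alone was called, and it fell by 0.84 ± 0.14 (adjusted p = 0.0345). Fish oil kidneys had 47 higher and 6 lower than necrotic kidneys, and in the necrotic interaction 29 were higher and 5 lower. In both, Acsm3 led the higher ones, at 4.43 ± 0.14 (adjusted p = 2.64e-06) and 4.62 ± 0.20 (adjusted p = 5.1e-05).

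The oil comparisons without necrosis called few of these other genes. With choline 0 of the 87 were called by limma, with 11 at an unadjusted p under 0.05 and a median of 0.03. In deficient kidneys without necrosis 1 was higher and 1 lower, while 74 of the 87 differences were above 0, with a median of 0.23 and 32 at an unadjusted p under 0.05. There Retsat, which saturates retinol and is a known PPAR target, rose by 0.66 ± 0.11 (adjusted p = 0.0268), and Acsl5, an acyl-CoA synthetase, was lower, at -0.72 ± 0.11 (adjusted p = 0.0171). Averaged over both choline levels 5 were higher and 1 lower, with a median of 0.14: the epoxide hydrolases Ephx1 and Ephx2 at 1.18 ± 0.19 (adjusted p = 0.0193) and 0.59 ± 0.11 (adjusted p = 0.0383), Retsat at 0.56 ± 0.08 (adjusted p = 0.0122), Slc27a2, a synthetase of very long chains, at 0.49 ± 0.09 (adjusted p = 0.0276), Acad11, a dehydrogenase of long chains, at 0.48 ± 0.09 (adjusted p = 0.0286), and Acsl5 at -0.51 ± 0.08 (adjusted p = 0.0162).

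Members of the set differed in how closely they followed the mitochondrial genes as a group. Over the 5 group means, the Pearson correlation with the median pattern of the 22 mitochondrial genes, themselves included, was 0.999 for Hadhb, 0.998 for Acadm and 0.998 for Acsl1, and it was 0.282 for Cpt1a, 0.617 for Ucp3 and 0.817 for Cpt2. Outside the set the 5 genes closest to this pattern were Rcan2, Slc26a7, Twnk, Fdx1 and Nadk2, all above 0.998. With 5 points from 10 shared arrays these values describe the profiles and no more.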

How the data were processed

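Kidney RNA was read on 10 arrays, each 1 pool of 3 animals. The authors deposited log2 intensities, 1 for each probe set, and the submitters' processing notes name RMA as the method. Neither the software for RMA nor the probe set definition or genome build is given in the sources used here, so no probe position is printed. Array medians lay between 7.28 and 7.43. No further scaling or filter was applied in the fit, and precision is limited by the number of arrays.

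Of 29214 probe sets, 15310 had 1 gene symbol in the platform annotation, 323 had several and 13581 were not listed, and a probe set with several symbols named no gene. All 37 symbols were the same in the current RefSeq gene table (assembly GRCr8), from which the promoters also come. All 37 genes passed the filter on dim probe sets that was tried as an alternative.

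The 10 arrays entered 1 linear model (limma 3.58.1 in R 4.3.3, functions lmFit and eBayes), which left 5 residual degrees of freedom and took 3.59 from the prior. There were 9 contrasts, 2 of them interactions, each with Benjamini-Hochberg adjustment over every probe set and a threshold of 0.05. The script was tested on simulated data. Promoters were searched in Python 3.11.15 (pandas 2.3.3, numpy 2.4.6), and figures were drawn with matplotlib 3.10.9.

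The members and lists were chosen with earlier results of these data known, so their counts are descriptions beside the background of each comparison. The lists are the 3 classes of members, other pathway genes, respiratory chain and citrate cycle, and markers of proximal tubule, distal nephron, podocyte, macrophage, fat, skeletal muscle and tubular injury. Values on every array are given for the members called, up to 12 rises and 12 falls of a contrast, and for 9 genes always. Other pathway genes are named from the 4 largest rises and falls per contrast, with counts alone for the rest, with Fabp1, Cd36, Ppard, Pparg and Rxra always.

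Alternatives were median centring, cyclic loess, leaving out the lowest 25% of probe sets, fitting the compared groups alone, a trend and robust prior, the replicate number as a block, the mean of a gene's probe sets and leaving out each array. Replicate numbers of different groups share no animal in the labels, and same-numbered arrays correlated at -0.17 to 0.14 in their deviations from the group means, so the numbers were not taken as pairs. P-values measure the spread between pools, not between single animals.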

Additional observations from a re-analysis of the deposited data

Results flagged for a closer look

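The effect of choline deficiency differed between the oils, by limma's interaction term, for 19 of the 37 genes when the necrotic pools stand for the deficient vegetable oil diet. Over all probe sets 4.9% were called higher and 3.82% lower in that term, and 23 of 30 proximal tubule markers were called higher. When the pools without that label stand for the diet, 1 gene differed, with 0.00685% of all probe sets called higher and 0.0958% lower. Each value is the deficiency difference with fish oil minus that with vegetable oil on the log2 scale, so a value above 0 is a more positive difference with fish oil.

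Among the mitochondrial genes, Acat1, of acetoacetyl-CoA cleavage, had 1.64 and Acsl1, of fatty acid activation, 1.58. Acadm and Acadvl, the medium and very long chain dehydrogenases, had 1.38 and 0.86. Echs1, Hadh, Hadhb and Acaa2, of the later steps of the cycle, had 1.24, 1.17, 0.76 and 1.07. Etfdh and Etfa, which carry the electrons onward, had 1.33 and 0.79. In the peroxisome, Ehhadh had 2.06, Cat 1.32, Acaa1b 1.21 and Ech1 0.92. Of the regulators and other targets, Ppara had 1.74, Ppargc1a 0.78, Cyp4a1 1.78 and Vnn1 0.77.

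Angptl4 was the single gene called with a value below 0, at -2.79 against the necrotic pools and -2.18 against the others (adjusted p = 0.00124 and 0.045, limma). Its control vegetable oil arrays were at 7.79 and 8.31 and its control fish oil arrays at 10.11 and 9.87, while the deficient arrays without necrosis were at 10.74 and 10.35 with vegetable and 10.40 and 10.22 with fish oil. The call without the necrotic pools was lost when any 1 of the 8 arrays was left out.

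The 2 terms differ by the necrotic minus deficient vegetable oil difference, in which 20 of the 37 genes fell. No fish oil pool carries the necrotic label, so that difference has no counterpart under fish oil.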

How the results depend on the processing

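Of the values of single genes recomputed under each alternative, 1412 kept direction and side of the threshold, 215 lost the call, 28 gained it and 1 reversed: Creb3l3 in necrotic against control vegetable oil kidneys, uncalled throughout, ran from -0.42 without control vegetable oil replicate 1 to 0.031 without replicate 2. Median centring and cyclic loess moved no count of called genes by over 1.5 times.

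Fitting the compared groups alone gave 5 falls in necrotic against deficient vegetable oil kidneys, 0 rises with fish oil with or without choline, and 0 calls for the non-necrotic interaction. The trend and robust prior gave 7 rises with fish oil and choline, 16 without choline, and 1 fall in deficient against control vegetable oil kidneys. The mean of a gene's probe sets, which tests fewer features, gave 9 and 18 rises with fish oil with and without choline, and 2 rises in necrotic against deficient vegetable oil kidneys. Leaving out the lowest 25% of probe sets gave 7 rises with fish oil and choline, and averaging the oil over both choline levels gave 17. With the replicate number as a block, which pairs no animals, the non-necrotic interaction had 0 calls and no other count moved by over 1.5 times. Except for the oil average, the share of all features called in these fits is not given here. These counts therefore have no background beside them.

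Leaving out 1 array gave 1 to 2 rises in necrotic against control vegetable oil kidneys, 11 to 22 falls in necrotic against deficient vegetable oil kidneys (median -0.75 to -0.48), 0 to 2 rises with fish oil and choline, 0 to 14 without choline (median 0.40 to 0.68), 0 falls in deficient fish oil against necrotic kidneys, 0 calls for the non-necrotic interaction and 7 to 14 higher for the necrotic one. The median in deficient against control vegetable oil kidneys ran from -0.36 to -0.00 (-0.0022). With 2 arrays per group precision is limited, and the cause of the changed counts was not tested.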
